A study of Mus musculus with 9 samples.

Results

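The miR-21a hairpin gives rise to a pair of mature microRNAs (miRNAs), short RNAs that silence messenger RNAs by base pairing, mmu-miR-21a-5p and mmu-miR-21a-3p. Its strands were followed in small-RNA libraries of mouse liver after acetaminophen (APAP), a drug that injures hepatocytes at high dose. Both were found by name among the 946 miRNA rows of the table, and both were among the 360 rows with enough reads to test. The pair was chosen by the level of miR-21a-3p in APAP against Control livers, where it was among the 3 of 360 rows (0.833%) that passed the test. Every APAP value against Control below is therefore a description, and nothing is read from that count.

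The livers were those of 8 weeks old C57 BL6 mice of wild-type genotype, and were collected at 6 h after APAP or saline, in 3 groups of 3 libraries. dmPGE2+APAP mice received dmPGE2, a methylated analog of prostaglandin E2, at 300 µg/kg into the peritoneum 1 h before APAP. Both dmPGE2+APAP and APAP mice received 500 mg/kg APAP by the same route, and Control mice received saline. A group with dmPGE2 but no APAP was not among the libraries. Whether the 3 libraries of a group came from 3 animals is not given in the labels, and the spread behind every p-value may be technical in part. The Control columns carry a prefix (BC) of their own and were assigned to Control because no other group was left.

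miR-21 is among the most abundant miRNAs of many tissues and is known as an injury-induced and growth-associated miRNA, transcribed under the control of AP-1 and STAT3. The hairpin is cut by Drosha and Dicer into a duplex, of which Argonaute usually keeps the guide strand, here the 5p strand, while the passenger strand, here the 3p strand, is mostly degraded. A mature miRNA finds its targets mainly through its seed (bases 2 to 8), so the 2 strands address different messenger RNAs.

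The mature strands and their hairpin are shown because the results turn on which arm the reads came from. Seeds are in capitals in the mature strands, and in the hairpin the capitals mark the 5p and then the 3p strand (5′ to 3′, RefSeq, GRCm38.p6).
mmu-miR-21a-5p: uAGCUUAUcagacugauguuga
mmu-miR-21a-3p: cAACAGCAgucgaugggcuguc
Mir21a hairpin: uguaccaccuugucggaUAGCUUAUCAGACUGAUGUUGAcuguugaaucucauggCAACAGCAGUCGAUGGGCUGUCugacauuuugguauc

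The hairpin lies on the minus strand of chromosome 11, from 86584067 to 86584158. The 5p strand occupies 86584120 to 86584141 and the 3p strand 86584082 to 86584103. Both are 22 bases long, and their read levels were used without a length correction. The hairpin falls within the annotated bounds of Vmp1 (86583858 to 86683836), a gene for an autophagy membrane protein on the same strand, 209 bases from its 3′ end. The table used here gives gene bounds only, so exon and intron were not distinguished. In the predicted fold of the hairpin (RNAfold, -46.2 kcal/mol), 19 base pairs joined the mature arms. The first 4 bases of the 5p strand made 2 G-C, 1 A-U and 1 G-U pairs, and those of the 3p strand made 2 G-C and 2 A-U pairs. Of the 946 rows, 795 matched a RefSeq mature sequence, and 0 other rows among these had the seed of either strand. No row shared its reads with either strand (0 rows within 5% or 2 reads in every library), and 0 rows were named for the paralogs miR-21b and miR-21c.

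Reads summed over all rows numbered between 1038799 and 6994952 in dmPGE2+APAP, between 3523998 and 7563788 in APAP and between 7590735 and 10483460 in Control. Reads that fall in more than 1 row count in each, so these sums, used here as depth, are not counts of sequenced reads. The hepatocyte miRNA miR-122-5p, the defining marker of this tissue, was abundant in every library. Levels are given as CPM, read counts scaled to library size by TMM, a method that equalises the bulk of miRNAs between libraries. Counting intervals (95%) cover counting error only, since PCR copies are not independent molecules.

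The guide strand was among the most abundant miRNAs in every group. Of the reads summed over all rows, miR-21a-5p took 18.8%, 15.2% and 18.3% in the dmPGE2+APAP libraries. It took 21.2%, 21.9% and 17.3% in the APAP libraries, and 21.0%, 17.5% and 19.6% in the Control libraries. It was the first row of the table by reads in 4 libraries, APAP replicates 1 and 2 and Control replicates 1 and 3. In the others it stood behind miR-122-5p and miR-122b-3p, whose rows count nearly the same reads. The summed total holds those reads in both rows, so the shares above are too low, and unevenly so between libraries.

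miR-21a-5p reached 186276, 134793 and 177288 CPM in dmPGE2+APAP, 201411, 227228 and 145977 CPM in APAP, and 234211, 231453 and 189199 CPM in Control. The means were 166119 ± 27499 CPM in dmPGE2+APAP, 191539 ± 41515 in APAP and 218288 ± 25229 in Control (SD, n = 3 each). The APAP libraries spanned the ranges of the other groups in part, while all 3 dmPGE2+APAP libraries lay below all 3 Control libraries by a narrow margin. Among the 360 rows, 8.61% were lower in this way in dmPGE2+APAP than in Control.

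No difference in miR-21a-5p passed a test. dmPGE2+APAP differed from APAP by a log2 value of -0.21 (SE 0.21, 95% interval -0.65 to 0.24), and the Benjamini-Hochberg adjusted p from edgeR was 0.911. Against Control the log2 value of dmPGE2+APAP was -0.39 (SE 0.21, interval -0.84 to 0.05), with an edgeR adjusted p of 0.489. Both intervals include 0, and neither shows that the levels were alike. APAP against Control stood at a log2 value of -0.19 (SE 0.21). With library totals in place of TMM that value became 0.06, as the median of all rows moved by 0.25, so its sign depends on the scaling.

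The passenger strand was rare, and its group means lay further apart in proportion than those of its partner. miR-21a-3p was counted 126, 18 and 78 times in dmPGE2+APAP, 201, 165 and 154 times in APAP, and 75, 60 and 20 times in Control. APAP libraries thus held the most 3p reads although the Control libraries were the deepest. Every library held more than the minimum count of 10, so the strand did not pass the filter through APAP alone.

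Scaled for depth, miR-21a-3p stood at 17.8, 15.3 and 15.9 CPM in dmPGE2+APAP, 28.9, 22.6 and 36.8 CPM in APAP, and 11, 8.15 and 1.84 CPM in Control. The 3 groups did not overlap: APAP was the highest, dmPGE2+APAP intermediate and Control the lowest. The means were 16.4 ± 1.29 CPM in dmPGE2+APAP, 29.5 ± 7.13 in APAP and 7.0 ± 4.69 in Control (SD, n = 3 each). The spread within groups was uneven, with a coefficient of variation of 7.88% in dmPGE2+APAP, 24.2% in APAP and 67.0% in Control.

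**Figure D1:**
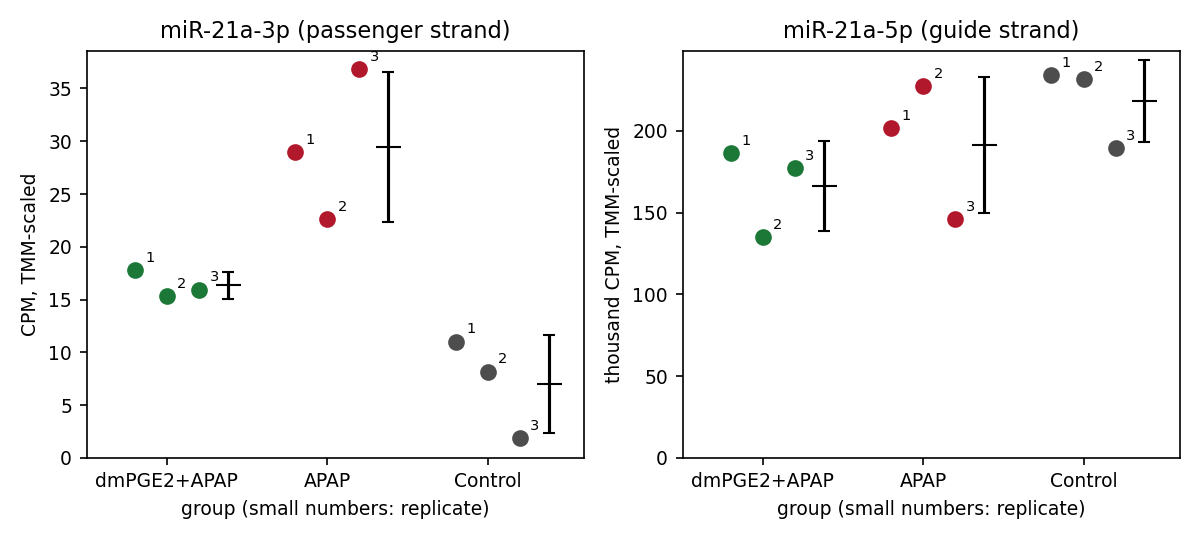
Level of each miR-21a strand by group. Points are libraries with their replicate number, and the bar beside them is the mean ± SD (n = 3). Vertical axes are TMM-scaled CPM, as labelled on each panel, and start at 0. miR-21a-3p lies between 22.6 and 36.8 CPM in APAP, above every dmPGE2+APAP and Control library, while the miR-21a-5p groups lie close together.

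The difference of miR-21a-3p between APAP and Control, on which the pair was chosen, was a log2 value of 2.09 (SE 0.44), or 4.27-fold. Among all 360 rows, 8.61% had all 3 APAP libraries above all 3 Control libraries, as this strand had. Control replicate 3 held the lowest value, and without it the difference was 3.10-fold.

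With dmPGE2 before APAP, miR-21a-3p averaged 0.556 times its mean in APAP alone, and all 3 libraries lay below all 3 APAP libraries. Of the 360 rows, 8.06% were lower in this way. The log2 difference was -0.83 (SE 0.43), with a 95% interval of -1.75 to 0.09, and the edgeR adjusted p was 0.731 (Benjamini-Hochberg). This did not pass, where 0.278% of rows did. The interval includes 0 and also large decreases. With every library thinned in a single random draw to the depth of the shallowest, the log2 difference was -0.45 (edgeR adjusted p 0.807). The error that such a draw adds was not measured. An exact two-sided permutation test of the 3 against 3 CPM values gave p = 0.1, the smallest value that such groups allow.

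Against Control, dmPGE2+APAP livers held 2.34 times the mean CPM of miR-21a-3p, again with no overlap, as in 6.11% of rows. The log2 difference was 1.26 (SE 0.45, 95% interval 0.31 to 2.22), with an unadjusted p of 0.0128 and an edgeR adjusted p of 0.277. It did not pass, where 0.278% of rows did, and the exact two-sided permutation p was 0.1. Without Control replicate 3 the difference was 1.76-fold. The 2 comparisons share the APAP or Control libraries with the comparison that led to this pair, so they are not independent of it.

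The ratio of the strands within a library needs no scaling between libraries, since both counts come from the same reads. For every 100000 reads of the 5p strand there were 9.56, 11.4 and 8.99 reads of the 3p strand in dmPGE2+APAP, 14.4, 9.94 and 25.2 in APAP, and 4.70, 3.52 and 0.974 in Control. Put the other way, between 3964 and 10056 guide reads stood beside each passenger read in APAP, and between 21287 and 102702 in Control. APAP and dmPGE2+APAP overlapped in this measure, and both lay above all Control libraries.

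The means were 9.98 ± 1.25 in dmPGE2+APAP, 16.5 ± 7.86 in APAP and 3.06 ± 1.90 in Control (3p reads per 100000 5p reads, SD, n = 3 each). Exact 95% counting intervals (Clopper-Pearson) show which libraries differed by more than counting error. They ran from 21.4 to 29.5 in APAP replicate 3 and from 8.49 to 11.6 in APAP replicate 2, so these replicates stood apart. Control replicate 3 (0.595 to 1.5) likewise lay below Control replicate 1 (3.70 to 5.89). In dmPGE2+APAP the intervals of all 3 libraries overlapped, the widest being 6.74 to 18.0 in replicate 2, whose 18 passenger reads came from the shallowest library.

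**Figure D2:**
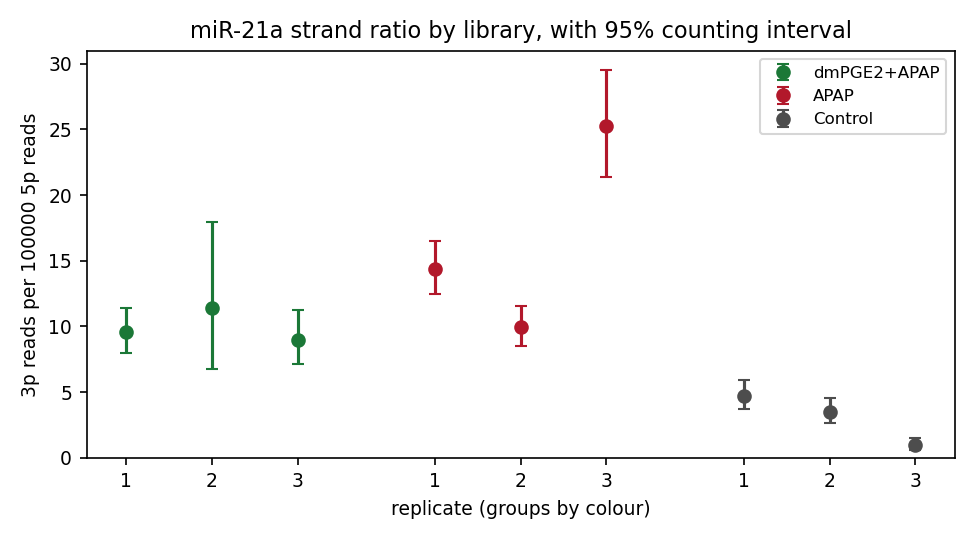
Reads of miR-21a-3p per 100000 reads of miR-21a-5p in each library (vertical axis, starting at 0), by group colour and replicate number. Bars are exact 95% counting intervals. The highest library is APAP replicate 3 at 25.2 and the lowest is Control replicate 3 at 0.974.

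The ratio was compared as log2((3p reads + 0.5)/(5p reads + 0.5)) in a limma fit over the 98 hairpins that had both arms among the tested rows, out of 269 with both arms in the table. In dmPGE2+APAP against APAP it differed by -0.61 (SE 0.57, 95% interval -1.91 to 0.68), with a limma adjusted p of 0.826. An exact two-sided permutation test of the ratios gave p = 0.2. In the same single random draw at equal depth the log2 difference was -0.24 (limma adjusted p 0.916). In this comparison 0 of 98 hairpins (0%) passed by limma, with unadjusted p-values under 0.05 for 1 that was higher and 2 that were lower, and 0 by an edgeR test of the strand and group interaction. The data therefore do not resolve whether dmPGE2 altered the strand ratio beyond APAP, as the interval covers both lower and higher ratios.

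In dmPGE2+APAP against Control the log2 ratio was higher by 1.97 (SE 0.57, 95% interval 0.68 to 3.27), or 3.93-fold, with an unadjusted limma p of 0.0072 and an adjusted p of 0.137. It did not pass, and 0 of 98 hairpins (0%) did by limma or by edgeR, with unadjusted limma p-values under 0.05 for 6 that were higher and 8 that were lower. All 3 dmPGE2+APAP ratios lay above all 3 Control ratios, as in 11.2% of hairpins, with an exact two-sided permutation p of 0.1. Without Control replicate 3 the difference was 2.45-fold.

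In APAP against Control, the contrast used in the choice, the log2 ratio was higher by 2.59 (SE 0.57), or 6.01-fold, and 3.75-fold without Control replicate 3. No overlap in this direction was seen in 6.12% of hairpins. By limma 0 of 98 hairpins (0%) passed, with unadjusted p-values under 0.05 for 4 that were higher and 5 that were lower, and the edgeR interaction called 1, miR-21a itself. Nothing is read from these counts.

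Set beside other hairpins, miR-21a had the lowest strand ratio of the 98 when averaged over all libraries. Averaged over the 9 libraries it had 9.85 passenger reads per 100000 guide reads, against 19.8 for the next, miR-99a, and a median of 9583. That median leaves out miR-5615, which has no such mean because both arms had 0 reads in dmPGE2+APAP replicate 2. This order did not hold in every group, as miR-99a had 4.10 passenger reads per 100000 in dmPGE2+APAP, against 9.98 for miR-21a. Only 6 hairpins had under 100, and 16 had under 1000. In APAP against Control, the contrast used in the choice, its increase was also the largest of the 98, a rank that the choice itself favours. Next came miR-671 (1.42), miR-1948 (0.88), miR-101a (0.85) and miR-425 (0.80) on the log2 scale. The largest decreases of the ratio were in miR-503 (-2.0), miR-362 (-1.97), miR-331 (-1.33), miR-350 (-1.30) and miR-330 (-1.24). Either arm can contribute to such a decrease, and the less abundant arm was named by reads summed over all libraries. Without Control replicate 3, miR-21a ranked 2 among 100 hairpins.

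**Figure D3:**
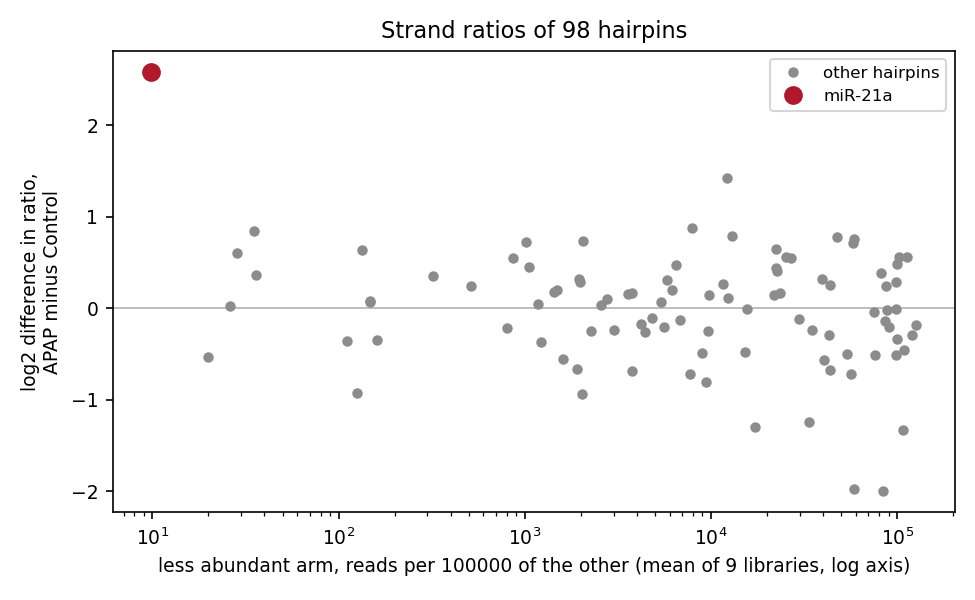
Strand ratios of the 98 hairpins tested, without miR-5615, which has no mean ratio. The horizontal log axis is the mean number of reads of the less abundant arm per 100000 reads of the other, and the vertical axis is the log2 difference in that ratio, APAP minus Control. miR-21a (red) lies farthest left at 9.85 and highest at 2.59, in the contrast used in its choice.

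The median change over all hairpins was small. The median log2 difference of the less over the more abundant arm across the 98 hairpins was 0.06 in APAP against Control, 0.06 in dmPGE2+APAP against APAP and 0.06 in dmPGE2+APAP against Control. The 10 hairpins with the most abundant arm included miR-21a, and the other 9 had medians of 0.11, 0.01 and 0.13 in the same order. The row pairs of miR-122 and miR-122b among them share reads of the abundant arm.

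The other 9 abundant hairpins gave log2 differences of both signs after APAP. miR-122-3p, the passenger of the main hepatocyte miRNA, had 148 reads per 100000 in APAP and 152 in Control (log2 0.07, SE 0.33). The passenger of miR-192, a miRNA of liver and gut, had 24.8 in APAP and 26.6 in Control (log2 0.03, SE 0.41). For miR-148a, another abundant liver miRNA, the log2 difference was -0.34 (SE 0.22), for miR-122b 0.61 (SE 0.41) and for miR-143, a miRNA of mesenchymal cells, 0.37 (SE 0.30). Values for miR-30a, miR-22, miR-27b and miR-126a were 0.32, 0.18, -0.36 and 0.11.

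**Figure D4:**
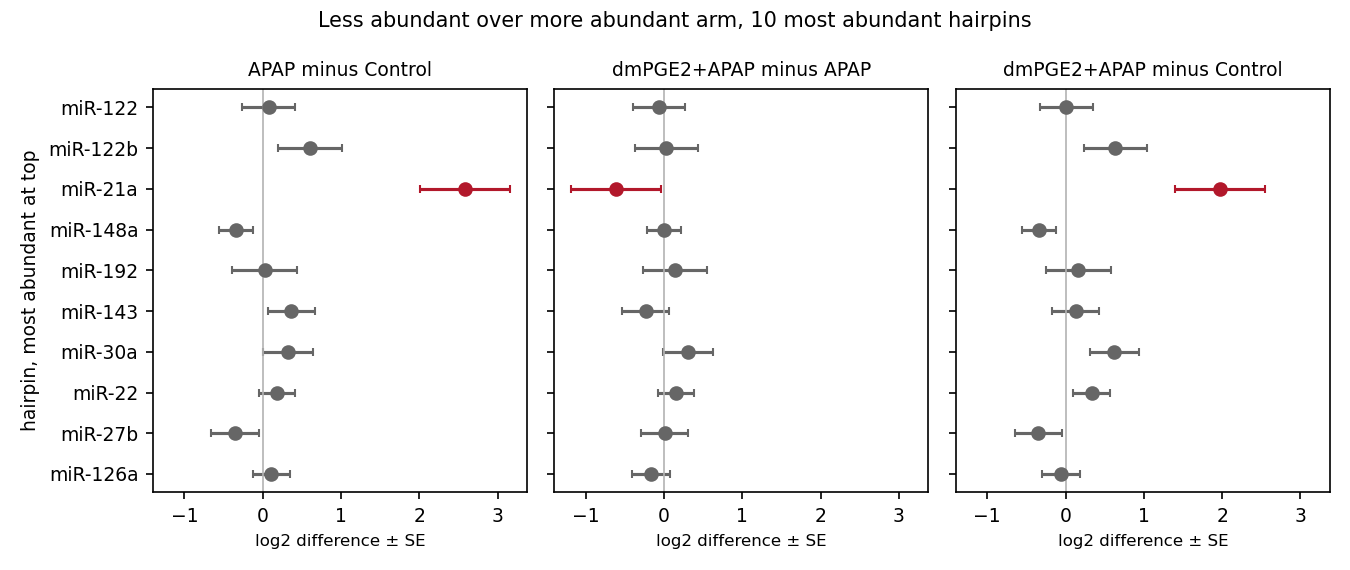
Log2 difference (horizontal axis, ± SE) in the ratio of the less to the more abundant arm for the 10 hairpins with the most abundant arm, one panel per comparison. miR-21a (red) stands at 2.59 in APAP minus Control, -0.61 in dmPGE2+APAP minus APAP and 1.97 in dmPGE2+APAP minus Control, and the other 9 lie between -0.36 and 0.64.

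The strands were compared with each other and with other rows across libraries. Over the 9 libraries the Pearson correlation of their log2 CPM was -0.24, which ranked miR-21a-5p 118th among 205 rows with a mean of at least 10 CPM. Without Control replicate 3 it was -0.44 (rank 149). The rows most like miR-21a-3p were miR-215-5p (r = 0.93), miR-128-3p (0.86), miR-29b-3p (0.84), miR-144-3p (0.81) and miR-15b-5p (0.81). These values rest in part on Control replicate 3, where miR-21a-3p and all 5 of these rows were at their lowest. Without that library the 5 values were 0.75, 0.69, 0.56, 0.51 and 0.82. The rows most like miR-21a-5p were miR-1948-5p (0.96), miR-30e-5p (0.96), let-7f-5p (0.93), miR-140-5p (0.90) and miR-186-5p (0.89). All correlations are over 9 libraries that share group and scaling, and are descriptions.

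miRNAs induced by the same transcription factors as miR-21 were followed as a list. Of 7 tested miRNAs induced by NF-kB, AP-1 or STAT3, edgeR called 0 in each of the 3 comparisons, and DESeq2 and limma-voom called 0. Over all rows edgeR and limma-voom each called 0.833% in APAP against Control, 0.278% in dmPGE2+APAP against APAP and 0.278% in dmPGE2+APAP against Control, and DESeq2 called 4.39%, 2.23% and 0.557%. At such shares a count of 0 is near the background and is no result about a short list. At an unadjusted p under 0.05, edgeR gave 1, miR-9-5p in dmPGE2+APAP against Control (log2 1.21, SE 0.50). In this comparison 20 of 360 rows were higher and 18 lower at that p. The miR-9-5p difference rested on dmPGE2+APAP replicate 2, the shallowest library, at 28.97 CPM. Replicates 1 and 3 of that group, at 6.503 and 7.155 CPM, lay within the range of the Control libraries. The median log2 values of the 7 miRNAs were -0.09 in APAP against Control, 0.02 in dmPGE2+APAP against APAP and -0.09 in dmPGE2+APAP against Control. All tested rows had medians of -0.05, 0.00 and -0.03 in the same order. miR-146a-5p, a feedback inhibitor of NF-kB signalling, averaged 293 CPM in dmPGE2+APAP, 289 in APAP and 316 in Control. miR-221-3p, which promotes hepatocyte proliferation, averaged 126 CPM in dmPGE2+APAP, 152 in APAP and 162 in Control.

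miRNAs released from injured hepatocytes into blood, and miRNAs linked to fibrosis, were read against the same shares. For the 4 circulating injury markers the count was 0 in each comparison by edgeR, DESeq2 and limma-voom, and 0 at an unadjusted edgeR p under 0.05, again near the background. Their medians were -0.24 in APAP against Control, 0.17 in dmPGE2+APAP against APAP and -0.07 in dmPGE2+APAP against Control. miR-122-5p had log2 values of -0.34 (SE 0.23), 0.09 (SE 0.23) and -0.25 (SE 0.23), and miR-192-5p of -0.27, 0.24 and -0.04, in that order. The 6 fibrosis-linked miRNAs gave the same counts of 0 and medians of 0.03, 0.04 and 0.21. miR-29a-3p, which represses collagen genes, had values of -0.00, -0.03 and -0.03, and miR-199a-3p, a miRNA of stellate cells, of 0.10, 0.10 and 0.21.

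The summed level of red-cell markers was highest in APAP, as was miR-21a-3p. The 5 erythroid rows, none of them at 0, summed to between 396 and 423 CPM in dmPGE2+APAP, 813 and 1555 in APAP, and 468 and 606 in Control. Most of the sum was miR-451a. In APAP against Control all 5 rows were higher (median log2 1.17), each at an unadjusted edgeR p under 0.05, as were 23 of 360 rows. In dmPGE2+APAP against APAP all 5 were lower (median log2 -1.28), each at that p, as were 14 of 360 rows. Against Control 2 of the 5 rows were higher in dmPGE2+APAP, with a median log2 value of -0.01, and 0 had such a p. The miR-486a-5p and miR-486a-3p rows had nearly the same values, so the 5 rows are not independent. Of the 5, miR-451a, a red-cell miRNA, fell with dmPGE2 (log2 -1.44, SE 0.25, edgeR adjusted p 0.00993 against APAP), and the other 4 were not called. DESeq2 called 4 of the 5 in that comparison, 3 in APAP against Control and 0 in dmPGE2+APAP against Control, where it called 2.23%, 4.39% and 0.557% of all rows. The miR-451a call was lost without dmPGE2+APAP replicate 2 or APAP replicate 1, and with only the compared groups in the fit. The 4 myeloid rows, led by miR-142a-5p and also holding miR-223-3p, summed to between 153 and 238 CPM in dmPGE2+APAP, 177 and 319 in APAP, and 124 and 233 in Control. All 4 were higher in APAP than in Control (median log2 0.59) and lower in dmPGE2+APAP than in APAP (median log2 -0.75). Against Control, 3 of the 4 were higher in dmPGE2+APAP (median log2 0.10). Of the 4, edgeR called 0 in any comparison, where it called 0.278% to 0.833% of all rows. DESeq2 called 1, in APAP against Control, where it called 4.39%. At an unadjusted edgeR p under 0.05, 2 were higher in APAP than in Control, as were 23 of 360 rows. At that p, 1 was lower in dmPGE2+APAP than in APAP, as were 14 of 360 rows. The part of either list in the miR-21a-3p values was not tested. In bulk liver, fewer cells of a type and less RNA per cell cannot be told apart.

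Summed levels of markers of other cells overlapped between APAP and the other groups. Summed CPM lay between 254098 and 306739 in dmPGE2+APAP, 245203 and 305516 in APAP, and 296099 and 431560 in Control for 4 hepatocyte rows. For 2 endothelial rows the ranges were 8787 to 10173, 7989 to 9433 and 7436 to 9114, and for 3 mesenchymal rows 25418 to 41117, 24128 to 36655 and 25597 to 41237, in the same order. The 5 cholangiocyte and epithelial rows gave 479 to 1008, 531 to 669 and 477 to 881, the 2 lymphoid rows 26.0 to 30.9, 20.1 to 33.1 and 13.9 to 33.1, and the 3 muscle rows 340 to 720, 313 to 902 and 481 to 2699. The highest epithelial sum was that of dmPGE2+APAP replicate 2, the shallowest library. There miR-200c-3p stood at 147 CPM, against 21.8 and 16.6 CPM in replicates 1 and 3 of that group. edgeR called 0 rows of these lists in any comparison, and DESeq2 and limma-voom called 0. Of all rows, edgeR and limma-voom called 0.278% to 0.833% and DESeq2 0.557% to 4.39%, so these counts are near the background. At an unadjusted p under 0.05 edgeR gave miR-145a-5p and miR-499-5p lower in APAP than in Control, as were 12 of 360 rows. At that p, miR-148a-3p and miR-499-5p were lower in dmPGE2+APAP than in Control, as were 18 of 360 rows.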

How the data were processed

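The authors deposited whole-number read counts per mature miRNA for 9 libraries, per the file headers. They also deposited TPM values, per the file headers, which are each count over the library total with no length term and served for 1 alternative. The submitters' processing notes name Bowtie and the mm10 build. How reads were counted, and with which versions and strand handling, is not given in the sources used here.

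Read counts went into edgeR 4.0.16 under R 4.3.3 (TMM, filterByExpr with minimum count 10 and minimum total 15, robust quasi-likelihood test) in a single model of all 9 libraries, adjusted over 360 rows. Strand ratios were tested with limma 3.58.1 (pseudocount 0.5). DESeq2 1.42.0 and limma-voom were alternatives. The fold came from RNAfold 2.7.2. Scripts were tested on simulated data. Named miRNAs were the members, the 5 rows most correlated with each, the 10 most abundant and the 10 most changed hairpins, and the 2 most abundant or any called members of each list. miR-9-5p, miR-99a, miR-200c-3p, miR-486a-5p, miR-499-5p and miR-5615 were named after their values were seen. Members and lists were chosen with earlier results of these data known.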

Additional observations from a re-analysis of the deposited data

How the results depend on the processing

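Over 19 alternatives for each strand and 16 for the ratio, no difference of dmPGE2+APAP from APAP or Control passed the test for either strand or the ratio, and only miR-21a-5p in APAP against Control changed sign (log2 0.06 with library totals and 0.05 with deposited TPM). The TPM alternative was chosen after seeing the data. For miR-21a-3p, leaving out 1 library at a time gave log2 values of 1.63 to 2.66 in APAP against Control, -0.98 to -0.60 in dmPGE2+APAP against APAP, and 0.82 to 1.87 in dmPGE2+APAP against Control. The ratio gave 1.91 to 3.03, -0.93 to -0.25 and 1.29 to 2.42 in the same order. APAP against Control served in the choice and gives no test of the members, and the call that led to their choice was lost wherever 0 rows were called. For strand ratios in that contrast the edgeR interaction called 1, miR-21a. There limma called 0 as reported, 3 with a pseudocount of 1 read and 1 with weights by reads. Nothing is read from these calls. With all libraries thinned to equal depth in a single random draw, dmPGE2+APAP against APAP gave -0.45 for miR-21a-3p and -0.24 for the ratio. The part of depth in these shifts was not tested, since the error of the draw was not measured. Adjusted p-values over all alternatives (edgeR, limma or DESeq2) ran from 0.246 to 0.993 and from 0.0840 to 0.459 for miR-21a-3p, and from 0.740 to 0.993 and from 0.0986 to 0.370 for the ratio, against APAP and against Control.

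Counts of called rows moved more: 3 in APAP against Control became 0 to 13 (13 with DESeq2, 0 with a mean of at least 10 CPM or the replicate block, 0 without APAP replicate 1 or 3 or Control replicate 2, and 1 without Control replicate 1 or 3), 1 in dmPGE2+APAP against APAP became 0 to 9 (9 with no filter, 0 with only the compared groups, 0 without dmPGE2+APAP replicate 2 or APAP replicate 1), and 1 in dmPGE2+APAP against Control became 0 to 2. Strand ratios called numbered 0 and became up to 3, 0 and 2. Whether replicate numbers pair the libraries is not given in the labels. Deviations from the means of groups of 3 cannot settle it, as they are tied to each other. Of same-numbered pairs, 2 of 9 had correlated deviations above 0.1, and differently numbered pairs reached 0.152. Not every library correlated best with its own number. With the replicate number as a block, miR-21a-3p stood at 2.21 in APAP against Control, and calls numbered 0, 2 and 1. Passenger reads, 18 to 201 per library, limit what the depth can show.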
